A study of Mus musculus with 8 samples.

Results

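The interferon signalling and interferon-stimulated genes described here are 33 genes of the mouse, chosen by symbol from the 55487 Ensembl genes of a count table. All 33 were matched, and 32 had enough counts to be tested. The RNA came from whole hypothalamus of mice of the C57BL/6J strain. In the hypoxia group, with 4 libraries, the mice had breathed 7% oxygen for 2 hours. In the normoxia group, also with 4, they had been at 21% oxygen for the same time. The labels call the libraries biological replicates without saying whether each is 1 mouse. They give no age or sex, and no genetic change or further agent in either group. By its title the series concerns the glucocorticoid receptor under low oxygen.

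Type I interferons are cytokines released when a cell senses viral nucleic acid. They bind a receptor made of IFNAR1 and IFNAR2, whose kinases JAK1 and TYK2 phosphorylate STAT proteins, STAT2 among them. With IRF9 these form the complex ISGF3, which binds the interferon-stimulated response element in front of antiviral genes such as Isg15 and the Ifit family. Brain cells hold a low resting level of this pathway in the absence of infection, and microglia and endothelium respond strongly to interferon.

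Polyadenylated RNA was counted per gene, with 16994473 to 21694383 counts per library. Levels are given as CPM, the count scaled to a common library size with TMM factors, and differences as the log2 fold change of hypoxia relative to normoxia. A gene was called when its Benjamini-Hochberg adjusted p over all 17047 genes tested was under 0.05 in edgeR's quasi-likelihood test. Hypothalamic peptide and transcription factor genes, Avp and Oxt among them, summed to 753 to 876 CPM in hypoxia and 451 to 890 CPM in normoxia. Normoxia replicate 2 stood apart, with cortex and hippocampus genes at 464 CPM against 53.6 to 148 CPM in the other 7 libraries, and with pituitary genes at 89.9 CPM. Hypoxia replicate 4 had the next highest pituitary sum, at 59.3 CPM. Normoxia replicate 1 had the highest thalamus sum, at 770 CPM against 431 to 550 CPM in the other 7, and the highest oligodendrocyte sum, at 11846 CPM against 6672 to 10185 CPM. The counts of called members and of called pathway genes are therefore also given without single libraries.

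In hypoxia 4 members were lower and 0 were higher, against a background of 1.23% of all genes called lower, 0.915% called higher and 2.15% called in either direction. The 4 were the receptor chain Ifnar1 and the transcription factors Stat2, Irf9 and Irf3, and the decreases ran from 16.5% to 34.1% of the normoxia level. None of the effector genes that interferon induces most strongly, such as Isg15, Ifit1, Rsad2 or Usp18, was called in either direction by edgeR. At an unadjusted p under 0.05, 9 members were lower and 1 was higher, against 11.7% and 7.63% of all genes. The 32 tested members had a median log2 change of −0.16, and that of all genes was −0.01. A negative log2 change was seen in 22 of the 32, and in 51.8% of all genes. Without normoxia replicate 2, 5 members were called lower, where 2.00% of all genes were. Without hypoxia replicate 4, 5 members were called lower, where 2.65% of all genes were. Without both, 5 members were called lower, where 4.31% of all genes were. A negative log2 change was seen in 23, 22 and 25 of the 32 members in these 3 fits. Without any 1 of the other 6 libraries, normoxia replicate 1 among them, 0 members were called, and in those fits 26 to 50 of all genes were. In whole tissue, fewer cells of a type and less RNA per cell cannot be told apart.

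**Figure D1:**
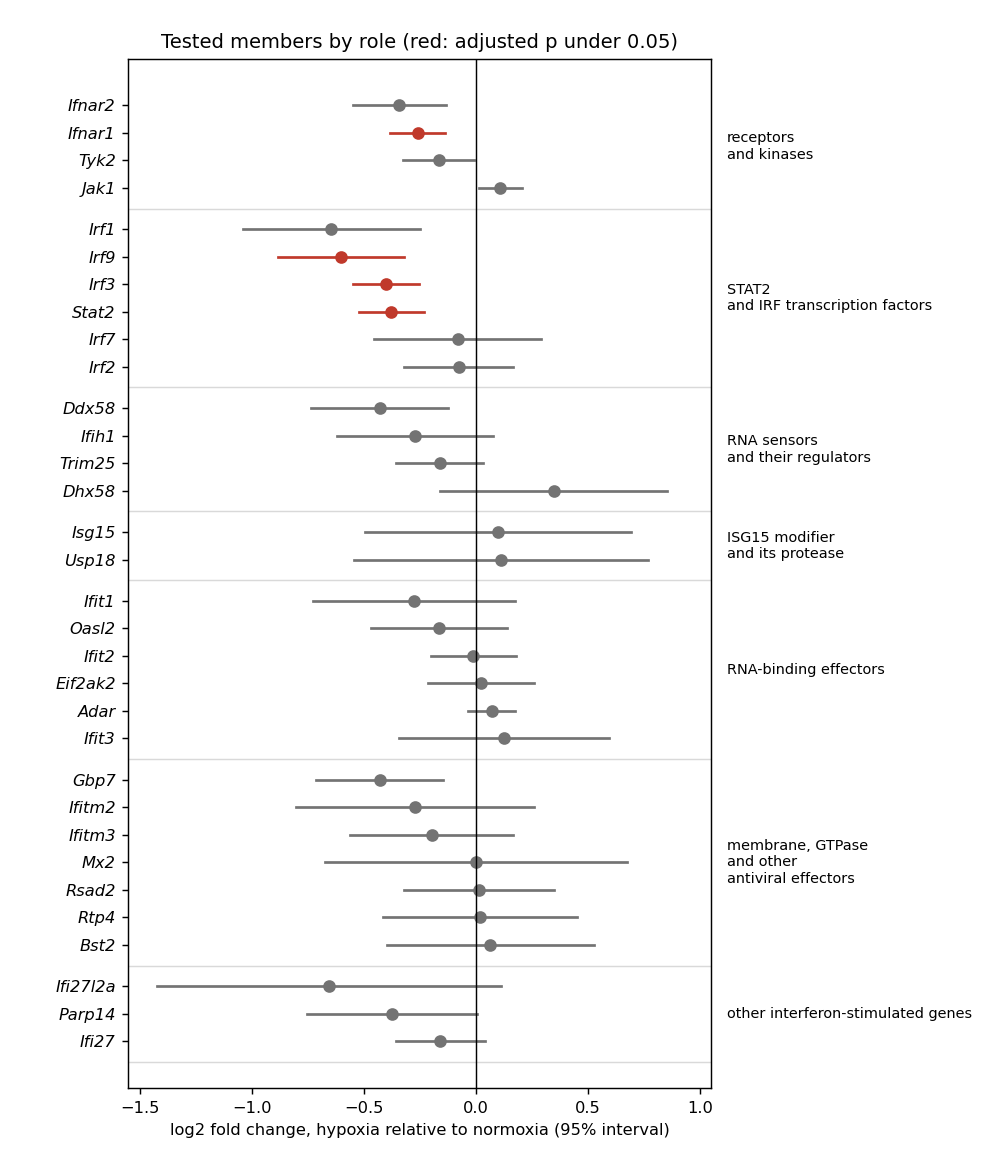
Log2 fold change of hypoxia relative to normoxia (horizontal axis) for the 32 tested members, grouped by role, with 95% intervals from edgeR's quasi-likelihood fit and the called genes in red. The called genes lie in the upper 2 role groups, with Irf9 at −0.60 and Ifnar1 at −0.26, and the intervals of Isg15 and Usp18 span 0.

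Promoter sequences show which members carry the letters that ISGF3 and STAT dimers bind. RefSeq windows of GRCm38.p6, from 250 bases before to 50 bases after a start given for the gene, were matched for 25 of the 33 members, in 30 windows. In 23 of the 30 the bases after that start were found in an annotated transcript of the gene. Each was searched on both strands for the core of the interferon-stimulated response element (GAAA, any 2 bases, and GAAA again), and for TTCNNNGAA, the gamma-activated site, which reads the same on both strands. The response element letters were present in 13 of the 25 members and in 3.99% of all 27025 genes with a window. The gamma-activated site letters were present in 10 of the 25 and in 9.55% of all genes. Of the 4 called members, Stat2 held the response element letters and Ifnar1 the gamma-activated site letters, while Irf3 and both windows of Irf9 held neither. Both Irf9 windows lie inside the annotated gene, which starts at 55603571, so the bases in front of that start were not searched. Of the 21 members with a window that were not called, 12 held the response element letters. A match is only a match of letters in this window. The windows are printed 5′ to 3′ on the gene's strand in lower case, with matched letters in capitals. The first 5 belong to the called members. Irf2 and Eif2ak2 are the members of highest mean level that hold the response element letters without being called, and Isg15, added after its matches were seen, holds 3 matches that overlap each other.
Ifnar1, chr16:91484965-91485264, plus strand: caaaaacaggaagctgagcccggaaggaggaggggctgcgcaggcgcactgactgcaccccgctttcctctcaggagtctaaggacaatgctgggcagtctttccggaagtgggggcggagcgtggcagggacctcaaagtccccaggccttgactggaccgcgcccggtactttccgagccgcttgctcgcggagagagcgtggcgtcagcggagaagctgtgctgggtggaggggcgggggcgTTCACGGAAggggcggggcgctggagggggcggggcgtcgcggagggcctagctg
Stat2, chr10:128270248-128270547, plus strand: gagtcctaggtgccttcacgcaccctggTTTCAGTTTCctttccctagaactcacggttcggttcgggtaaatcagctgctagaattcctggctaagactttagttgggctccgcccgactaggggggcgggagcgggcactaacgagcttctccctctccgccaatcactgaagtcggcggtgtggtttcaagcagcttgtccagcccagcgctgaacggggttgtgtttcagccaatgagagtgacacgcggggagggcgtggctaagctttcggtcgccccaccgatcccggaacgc
Irf9, chr14:55603735-55604034, plus strand: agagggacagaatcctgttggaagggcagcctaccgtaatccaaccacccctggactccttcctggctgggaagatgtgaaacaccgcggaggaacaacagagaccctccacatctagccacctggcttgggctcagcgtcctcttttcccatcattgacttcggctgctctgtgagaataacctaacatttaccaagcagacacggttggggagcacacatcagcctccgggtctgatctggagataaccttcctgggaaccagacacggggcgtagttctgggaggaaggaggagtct
Irf9, chr14:55604329-55604628, plus strand: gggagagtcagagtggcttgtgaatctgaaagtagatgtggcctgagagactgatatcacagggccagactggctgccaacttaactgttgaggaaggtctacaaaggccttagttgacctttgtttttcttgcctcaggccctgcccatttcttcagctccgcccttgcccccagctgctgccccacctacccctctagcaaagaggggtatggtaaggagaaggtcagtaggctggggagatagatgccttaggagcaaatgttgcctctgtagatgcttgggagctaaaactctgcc
Irf3, chr7:44997398-44997697, plus strand: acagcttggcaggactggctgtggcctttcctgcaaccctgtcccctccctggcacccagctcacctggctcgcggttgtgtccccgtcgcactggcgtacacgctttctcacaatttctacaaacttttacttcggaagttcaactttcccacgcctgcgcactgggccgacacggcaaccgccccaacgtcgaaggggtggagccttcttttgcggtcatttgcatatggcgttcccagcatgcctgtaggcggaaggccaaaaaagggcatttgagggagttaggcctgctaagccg
Irf2, chr8:46739495-46739794, plus strand: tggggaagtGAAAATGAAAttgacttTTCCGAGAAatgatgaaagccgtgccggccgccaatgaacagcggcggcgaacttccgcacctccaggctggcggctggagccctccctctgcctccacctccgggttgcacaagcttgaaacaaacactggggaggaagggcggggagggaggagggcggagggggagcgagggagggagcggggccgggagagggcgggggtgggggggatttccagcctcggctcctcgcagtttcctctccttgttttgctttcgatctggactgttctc
Eif2ak2, chr17:78882523-78882822, minus strand: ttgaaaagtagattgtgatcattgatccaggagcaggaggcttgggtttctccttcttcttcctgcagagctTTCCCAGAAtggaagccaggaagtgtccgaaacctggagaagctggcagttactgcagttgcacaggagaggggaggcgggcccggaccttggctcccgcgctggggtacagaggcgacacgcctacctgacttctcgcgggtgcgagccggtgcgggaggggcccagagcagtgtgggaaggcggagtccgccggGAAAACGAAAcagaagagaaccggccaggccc
Isg15, chr4:156200769-156201068, minus strand: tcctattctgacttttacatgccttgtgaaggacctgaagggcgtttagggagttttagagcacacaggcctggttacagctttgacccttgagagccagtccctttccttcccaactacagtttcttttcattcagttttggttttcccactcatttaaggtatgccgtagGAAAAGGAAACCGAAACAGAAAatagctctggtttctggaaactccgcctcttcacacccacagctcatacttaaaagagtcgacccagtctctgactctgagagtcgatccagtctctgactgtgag

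**Figure D2:**
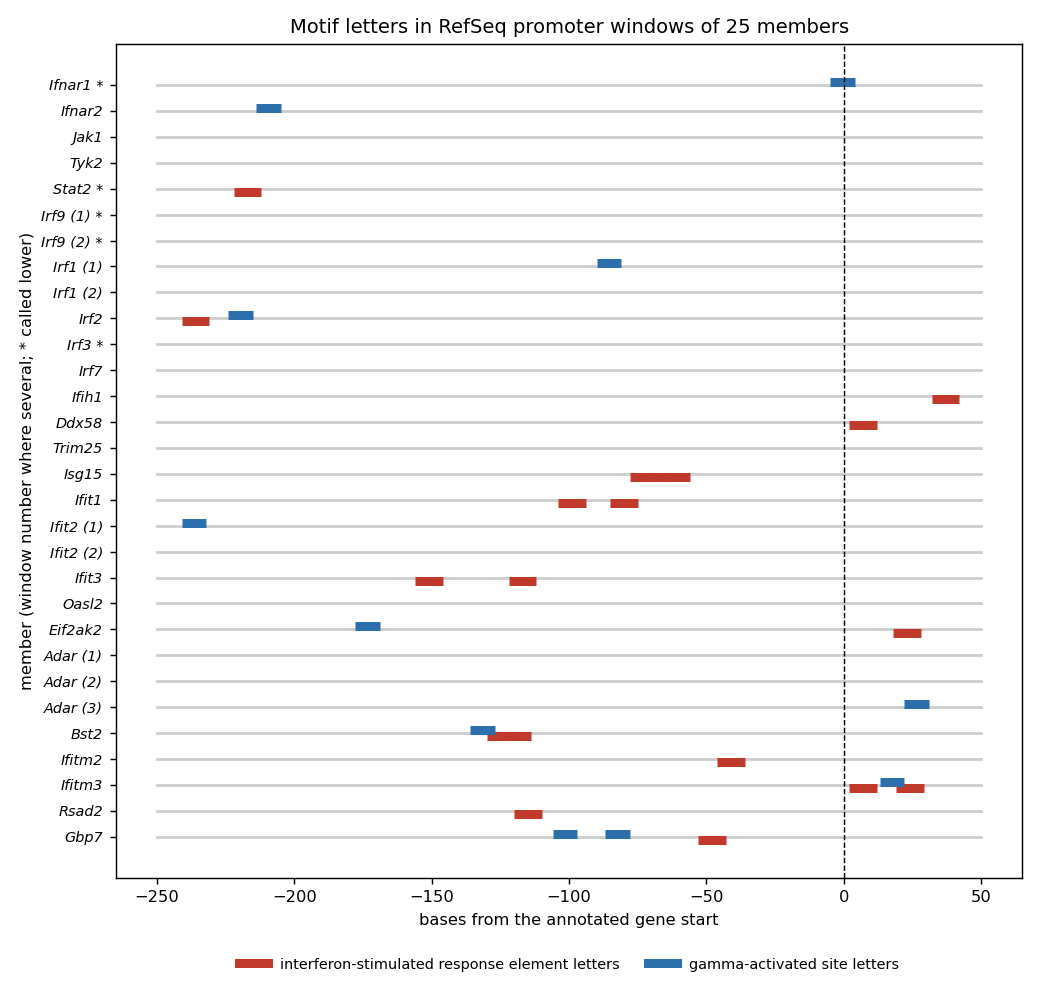
Position of the response element letters (red) and gamma-activated site letters (blue) in the 30 windows of 25 members, with asterisks on the called members. Positions are in bases from the gene start that each window uses. The matches of Isg15 begin 78, 72 and 66 bases before the start, and the lines of Irf3 and Irf9 are empty.

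The receptor and kinase genes did not move alike. Ifnar1 encodes the receptor chain that TYK2 binds, and lies on chromosome 16 (91485238 to 91507441, plus strand, GRCm38). It was at 39.8, 41.2, 36.2 and 37.7 CPM in hypoxia replicates 1 to 4 and at 45.1, 48.1, 45.5 and 46.8 CPM in normoxia. All hypoxia libraries lay below all normoxia libraries. The log2 change was −0.26 ± 0.06 (SE; edgeR quasi-likelihood, adjusted p = 0.0477), which is close to the threshold. Of the fits that left out 1 library, Ifnar1 was called in 1, that without normoxia replicate 2, and without hypoxia replicate 4 its log2 change was −0.25 (edgeR adjusted p = 0.0679). Ifnar2, the chain that JAK1 binds, was at 9.57, 10.6, 8.41 and 8.89 CPM in hypoxia and at 11.4, 12.4, 11.5 and 12.03 CPM in normoxia. These groups did not overlap either, but the gene did not pass the test (log2 −0.34, edgeR adjusted p = 0.0877). DESeq2 gave it an adjusted p of 0.0489.

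Jak1, the most abundant of the 4 per exon length at 22.6 CPM per kilobase in normoxia, had the opposite sign. It was at 177, 180, 169 and 178 CPM in hypoxia and at 168, 159, 159 and 166 CPM in normoxia. The groups did not overlap, and the log2 change of 0.11 did not pass the test (edgeR adjusted p = 0.202). The kinase gene Tyk2 averaged 20.9 ± 1.15 CPM over the normoxia libraries and 18.7 ± 1.115 CPM over the hypoxia libraries (SD, n = 4 per group). The groups did not overlap, and edgeR's adjusted p was 0.239. Exons of Tyk2 share 554 bases with 1700084C06Rik on the opposite strand, a gene at 0.152 CPM in normoxia.

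STAT2 and IRF9 are subunits of ISGF3, in which IRF9 recognises the response element. Stat2 (chromosome 10, 128270559 to 128292849) was at 22.7, 23.4, 22.4 and 25.7 CPM in hypoxia and at 29.7, 29.4, 31.9 and 31.3 CPM in normoxia. The lowest normoxia library lay above the highest hypoxia library, and the log2 change was −0.38 ± 0.06 (SE; edgeR quasi-likelihood, adjusted p = 0.0284). Irf9 (chromosome 14, 55603571 to 55610030) was at 10.2, 9.33, 9.95 and 14.1 CPM in hypoxia and at 17.02, 15.7, 16.7 and 16.7 CPM in normoxia. Hypoxia replicate 4 was nearer to the normoxia libraries than the rest of its group, without reaching them. The log2 change was −0.60 ± 0.12 (SE; edgeR quasi-likelihood, adjusted p = 0.046), and without that library it was −0.75. Exons of Irf9 share 123 bases with Rnf31 on the same strand. Rnf31 averaged 33.2 ± 1.96 CPM in normoxia against 29.3 ± 1.23 CPM under hypoxia (SD over 4 libraries per group, edgeR adjusted p = 0.153).

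Irf3 is present in resting cells and is activated by the nucleic acid sensors, upstream of interferon itself. The gene (chromosome 7, 44997648 to 45002848) was at 20.7, 23.02, 19.8 and 21.96 CPM in hypoxia and at 27.5, 29.2, 29.1 and 27.2 CPM in normoxia. The groups were well apart, and Irf3 had the smallest p of the members (log2 −0.40 ± 0.07, SE; edgeR quasi-likelihood, adjusted p = 0.0277). Its exons share 88 bases with Bcl2l12 on the opposite strand, a gene at 1.89 CPM in normoxia. Irf1, which interferon-gamma induces, was at 4.11, 4.00, 3.91 and 5.64 CPM in hypoxia and at 6.06, 5.53, 7.81 and 8.22 CPM in normoxia. Hypoxia replicate 4 just overlapped normoxia replicate 2, and the log2 change of −0.64 did not pass the test (edgeR adjusted p = 0.0916). Irf1 was called lower without normoxia replicate 2 (log2 −0.73, edgeR adjusted p = 0.0432), without hypoxia replicate 4 (log2 −0.78, 0.0442) and by DESeq2 (adjusted p = 0.0237).

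Irf2, an antagonist of Irf1 at shared sites, and Irf7, the amplifier of interferon production, had log2 changes of −0.08 and −0.08, with 95% intervals of −0.32 to 0.17 and −0.45 to 0.29. Normoxia replicate 2 held the highest Irf2 value, at 25.9 CPM against 18.4 to 20.3 CPM in its group. Of the interferon regulatory factors outside the members, Irf5 (log2 −0.70, edgeR adjusted p = 0.0765) and Irf8 (log2 −0.44, edgeR adjusted p = 0.125) had groups that did not overlap, with the hypoxia libraries lower. Irf5 and Irf8 act mainly in myeloid cells, which in brain are mostly microglia. Irf4, a lymphocyte factor, was below the filter.

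**Figure D3:**
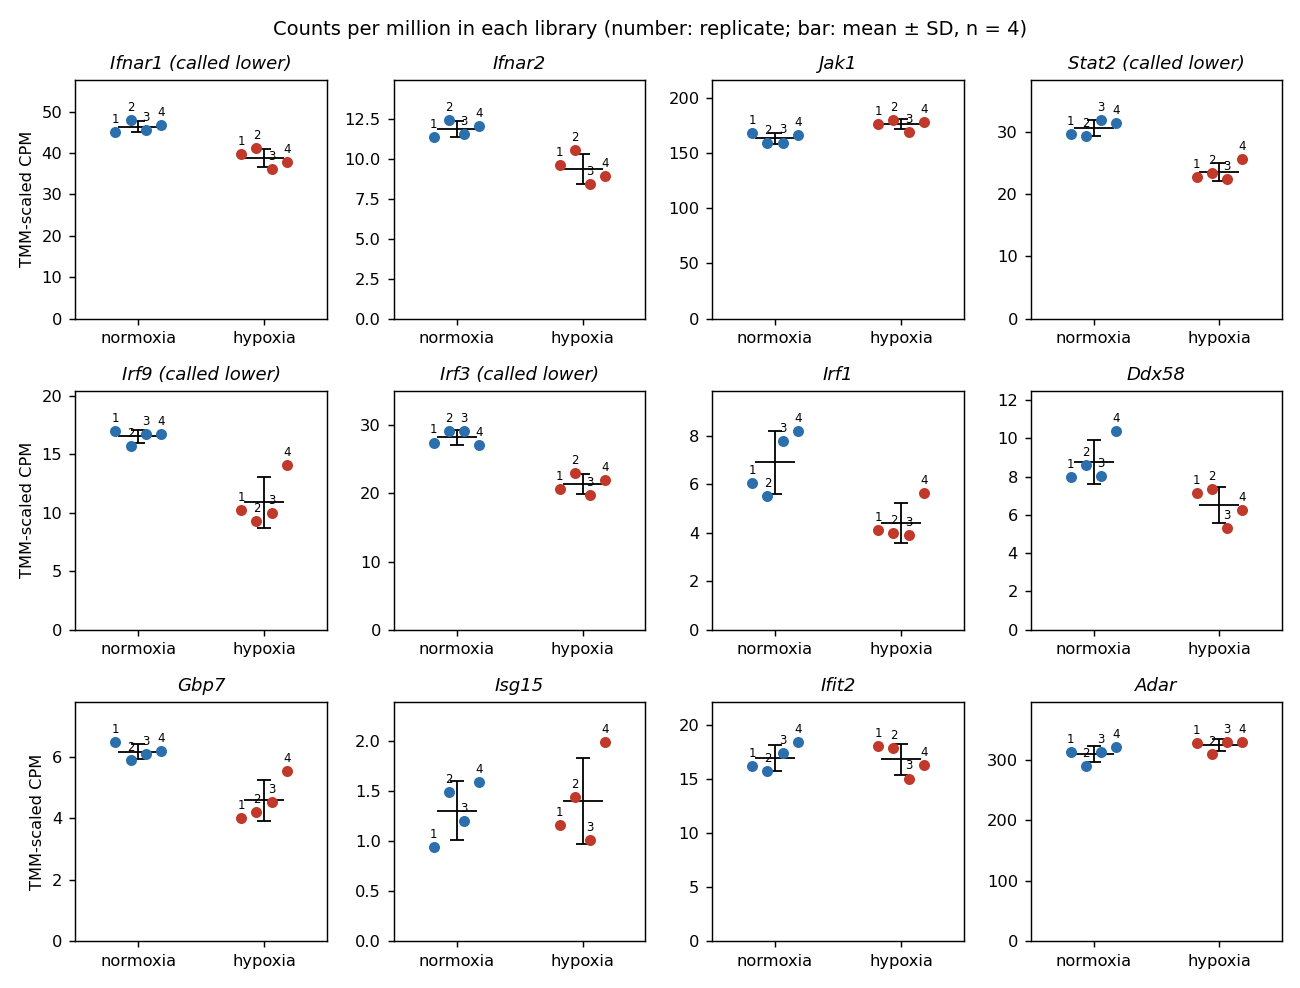
TMM-scaled CPM (vertical axes, from 0) of 12 members in each normoxia (blue) and hypoxia (red) library, numbered by replicate, with the mean and SD of 4 libraries in black. The hypoxia points of Ifnar1, Stat2, Irf9 and Irf3 all lie below the normoxia points, whereas those of Isg15 and Ifit2 overlap.

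Among the cytosolic RNA sensors, 0 of 4 were called. Ddx58, which encodes RIG-I, was at 7.16, 7.35, 5.31 and 6.24 CPM in hypoxia and at 7.99, 8.61, 8.04 and 10.4 CPM in normoxia. The groups did not overlap, and the log2 change of −0.43 had an edgeR adjusted p of 0.132. Ifih1, which encodes the long-RNA sensor MDA5, averaged 5.84 ± 0.744 CPM in normoxia against 4.85 ± 0.836 CPM under hypoxia (SD over 4 libraries per group), with overlap. Dhx58, the regulator LGP2, had a positive log2 change of 0.35 with a wide interval of −0.16 to 0.85. Trim25, the ubiquitin ligase that assists RIG-I, was the most abundant of the 4 per exon length. It was at 11.3, 14.1, 12.9 and 13.1 CPM in hypoxia and at 15.04, 13.2, 14.6 and 14.6 CPM in normoxia. These values overlapped, and its edgeR adjusted p was 0.338.

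Isg15, a ubiquitin-like modifier, and Usp18, the protease that removes it and also restrains the receptor, were barely present. Isg15 was at 1.16, 1.44, 1.01 and 2.00 CPM in hypoxia and at 0.94, 1.49, 1.21 and 1.59 CPM in normoxia. Usp18 was at 1.499, 1.71, 0.966 and 2.00 CPM in hypoxia and at 1.46, 1.22, 0.919 and 2.04 CPM in normoxia. Both overlapped fully between the groups. At 16 to 45 counts per library the 95% intervals of the log2 change ran from −0.49 to 0.69 for Isg15 and from −0.55 to 0.77 for Usp18, so smaller changes in either direction were not detectable at this depth.

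The RNA-binding effectors had 0 of 6 called. Ifit2, which binds viral and cellular RNA, was at 18.1, 17.9, 15.1 and 16.4 CPM in hypoxia and at 16.2, 15.8, 17.5 and 18.5 CPM in normoxia. The groups overlapped, and with 297 to 407 counts per library the interval of the log2 change was narrow, from −0.20 to 0.18. Ifit1 and Ifit3, its neighbours on chromosome 19, had log2 changes of −0.28 and 0.12. Their near-identical copies Ifit1bl1 and Ifit3b had 0.02 and −0.02, and reads could be split between the copies. Eif2ak2, the kinase PKR that halts translation on double-stranded RNA, had a log2 change of 0.02 (95% interval −0.21 to 0.26), and Oasl2 had −0.16 (−0.47 to 0.14).

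Adar, the enzyme that edits adenosine to inosine in double-stranded RNA and so keeps MDA5 from sensing it, was the most abundant member. It was at 329, 311, 330 and 330 CPM in hypoxia and at 313, 290, 313 and 321 CPM in normoxia. The groups overlapped and the log2 change was 0.07 (95% interval −0.03 to 0.17). Its level per exon length in normoxia was 38.1 CPM per kilobase, ahead of Jak1 at 22.6, Ifi27 at 14.7 and Ifitm3 at 12.9. Exons of Adar share 1365 bases with Chrnb2 on the opposite strand, which was at 101 ± 9.004 CPM in normoxia (SD, n = 4), so the Adar level is uncertain if the counting ignored strand.

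Membrane and GTPase effectors were also without a call. Gbp7, a guanylate-binding protein that interferon-gamma induces, was at 4.01, 4.21, 4.54 and 5.54 CPM in hypoxia and at 6.49, 5.90, 6.09 and 6.18 CPM in normoxia. The groups did not overlap, and the log2 change of −0.43 had an edgeR adjusted p of 0.107. Without hypoxia replicate 4, Gbp7 was called lower (log2 −0.53, edgeR adjusted p = 0.043). Ifitm3, which blocks viral fusion at endosomes, was at 7.11, 9.17, 5.89 and 8.29 CPM in hypoxia and at 8.56, 6.97, 9.07 and 10.3 CPM in normoxia, with overlap. Ifitm2 had a log2 change of −0.27, and Bst2, the tetherin that holds budding virions, 0.06. Rsad2, which encodes viperin, had 0.01 with an interval of −0.32 to 0.35, and Rtp4, a receptor-transporting protein, 0.02.

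The Mx genes encode dynamin-like GTPases, and in C57BL/6 mice Mx1 carries a deletion and makes no working protein. Mx1 was the member below the filter, with 5 to 17 counts per library. Mx2, annotated as a polymorphic pseudogene, was at 1.30 to 1.74 CPM in hypoxia and at 0.861 to 2.50 CPM in normoxia. Its log2 change was −0.00, with an interval of −0.67 to 0.67. In the remaining group, Ifi27 was at 18.7, 21.96, 17.5 and 18.9 CPM in hypoxia and at 20.7, 21.9, 23.7 and 19.7 CPM in normoxia, and the groups overlapped. Ifi27l2a had a log2 change of −0.66 with an interval of −1.42 to 0.11, which rests on 8 to 27 counts per library. Parp14, an ADP-ribosyltransferase, was at 3.29, 4.05, 4.54 and 4.49 CPM in hypoxia and at 4.80, 4.95, 4.59 and 6.86 CPM in normoxia. Its groups were just apart, and the log2 change of −0.37 had an edgeR adjusted p of 0.263.

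Counting over all tested members, the groups did not overlap in 9 that were lower in hypoxia (Ifnar1, Ifnar2, Tyk2, Stat2, Irf9, Irf3, Ddx58, Gbp7 and Parp14) and in 1 that was higher (Jak1). Among all genes tested this was so for 7.75% and 5.69%. Within groups the members did not all rank the libraries alike. Hypoxia replicate 2 was the highest of its group in 17 of 32 members and replicate 3 the lowest in 17. Normoxia replicate 4 was the highest in 13 and replicate 2 the lowest in 14.

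**Figure D4:**
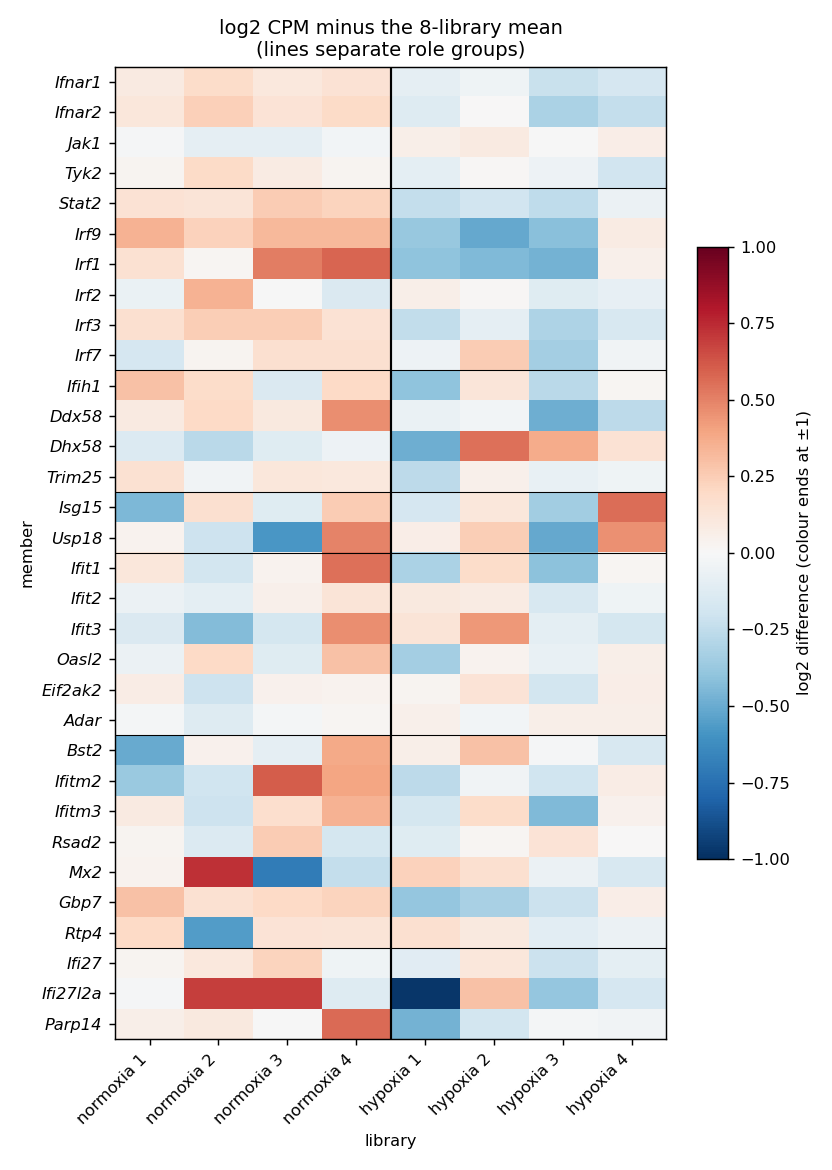
Log2 CPM minus the mean of the 8 libraries (colour, ending at ±1) for the 32 tested members (rows, lines between role groups) in each library (columns). Stat2, Irf9 and Irf3 are red in the 4 normoxia libraries and, apart from Irf9 in hypoxia replicate 4, blue in hypoxia, and the effector rows change colour from library to library.

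The interferon ligands themselves were close to absent. Of 11 ligand genes looked up, Ifnb1 and Ifna1 among them, 8 had a count of 0 in every library and the other 3 had at most 1 count in any library. A count of 0 allows up to 3 counts, which is 0.136 to 0.172 CPM in these libraries and covers counting error only. The chemokine genes Cxcl10 and Ccl5, sensitive targets of the pathway, had at most 11 and 3 counts in a library.

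Of 147 further genes of the pathway, 118 were tested, of which 0 were higher and 2 were lower, where 1.23% of all genes were called lower. They had a median log2 change of −0.10, and 84 of the 118 had a negative one. Both calls were signalling components. Pias4, a SUMO ligase that restrains STAT signalling, was at 12.6 ± 0.46 CPM under hypoxia against 16.1 ± 0.843 CPM (SD over 4 libraries per group, log2 −0.35, edgeR adjusted p = 0.0414). Myd88, the adaptor of most Toll-like receptors, was at 4.34 ± 0.375 CPM under hypoxia against 6.15 ± 0.268 CPM (log2 −0.50, edgeR adjusted p = 0.0497). Without normoxia replicate 2, 2 were lower and 1 (Tlr7) was higher, where 2.00% and 1.91% of all genes were. Without hypoxia replicate 4, 3 were lower, where 2.65% of all genes were. Without both, 5 were lower and 1 (Tlr7) was higher, where 4.31% and 2.66% of all genes were. Without any 1 of the other libraries, 0 further pathway genes were called.

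Mavs, the mitochondrial adaptor of RIG-I and MDA5, had a log2 change of −0.23 (edgeR adjusted p = 0.368), and Ifngr1, a chain of the interferon-gamma receptor, −0.09 (0.622). Of 21 tested genes of nucleic acid sensing, 13 had a negative log2 change. One of these was the gene for the DNA-sensing adaptor STING, Tmem173, at −0.53 (edgeR adjusted p = 0.0794). Of 47 further interferon-stimulated genes tested, 32 had a negative log2 change and 0 were called. The smallest p there was that of Trim34a, a TRIM family gene, with a log2 change of −0.64 and groups that did not overlap (edgeR adjusted p = 0.113). Of 11 GTPases of the interferon-gamma type, 9 had a negative change and 0 were called, with Gbp4 at −0.91 (edgeR adjusted p = 0.0817). Antigen presentation genes numbered 17 tested with 0 called, and the smallest p was that of H2-Q6, at a positive 0.62 (edgeR adjusted p = 0.212).

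The summed markers of the cell types that respond most to interferon overlapped between the groups. The 12 microglial genes summed to 384 to 429 CPM in hypoxia and 376 to 525 CPM in normoxia, with 0 called, 8 of 12 negative and a median log2 change of −0.06. The 525 CPM was in normoxia replicate 2, where Sall1 alone was at 97.0 CPM, against 26.8 to 32.1 CPM in the rest of its group. In hypoxia Sall1 was at 15.6 to 23.7 CPM, below every normoxia library (log2 −1.23, edgeR adjusted p = 0.138). It was the 1 microglial gene whose groups did not overlap, where 7.75% of all genes were lower in that way. Sall1 was also the 1 with an unadjusted p under 0.05 by edgeR, against 11.7% of all genes lower. The 12 endothelial genes summed to 357 to 416 CPM in hypoxia and 378 to 450 CPM in normoxia. Of them 1 was called lower, as were 1.23% of all genes. A negative log2 change was seen in 9 of the 12 (median −0.15), and in 51.8% of all genes. Other lists leaned lower too, with 9 of 10 oligodendrocyte genes negative (median −0.13) and 7 of 8 meningeal fibroblast genes (−0.25). Of the tested genes of neighbouring regions, 8 of 8 thalamus genes (median −0.39) and 6 of 7 cortex and hippocampus genes (−0.77) were negative. So were 3 of 4 tested pituitary genes (−0.38) and 5 of 5 red blood cell genes (−0.25). The mural and astrocyte lists each had 5 of 10 negative. Fewer were negative among the neuron genes, 4 of 10 (median 0.04), and the choroid plexus and ependymal genes, 3 of 8 (0.07). Among the hypothalamic peptide and transcription factor genes 2 of 12 were (0.25). Whether the dissected region differed between the groups was not tested. At an unadjusted p under 0.05, 4 endothelial genes were lower and 1 was higher, against 11.7% and 7.63% of all genes. In 2 endothelial genes the hypoxia libraries lay below all normoxia libraries, as in 7.75% of all genes. The 12 leukocyte genes summed to 5.70 to 7.78 CPM in hypoxia and 6.49 to 9.76 CPM in normoxia, and 6 of them, the T cell gene Cd3e among them, stayed under 10 counts in every library. All 3 leukocyte genes tested had a negative log2 change (median −0.43). By edgeR 0 of them passed the adjusted threshold, and 1 had an unadjusted p under 0.05. The part of these cell types in the decreases of Ifnar1, Stat2, Irf9 and Irf3 was not tested.

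**Figure D5:**
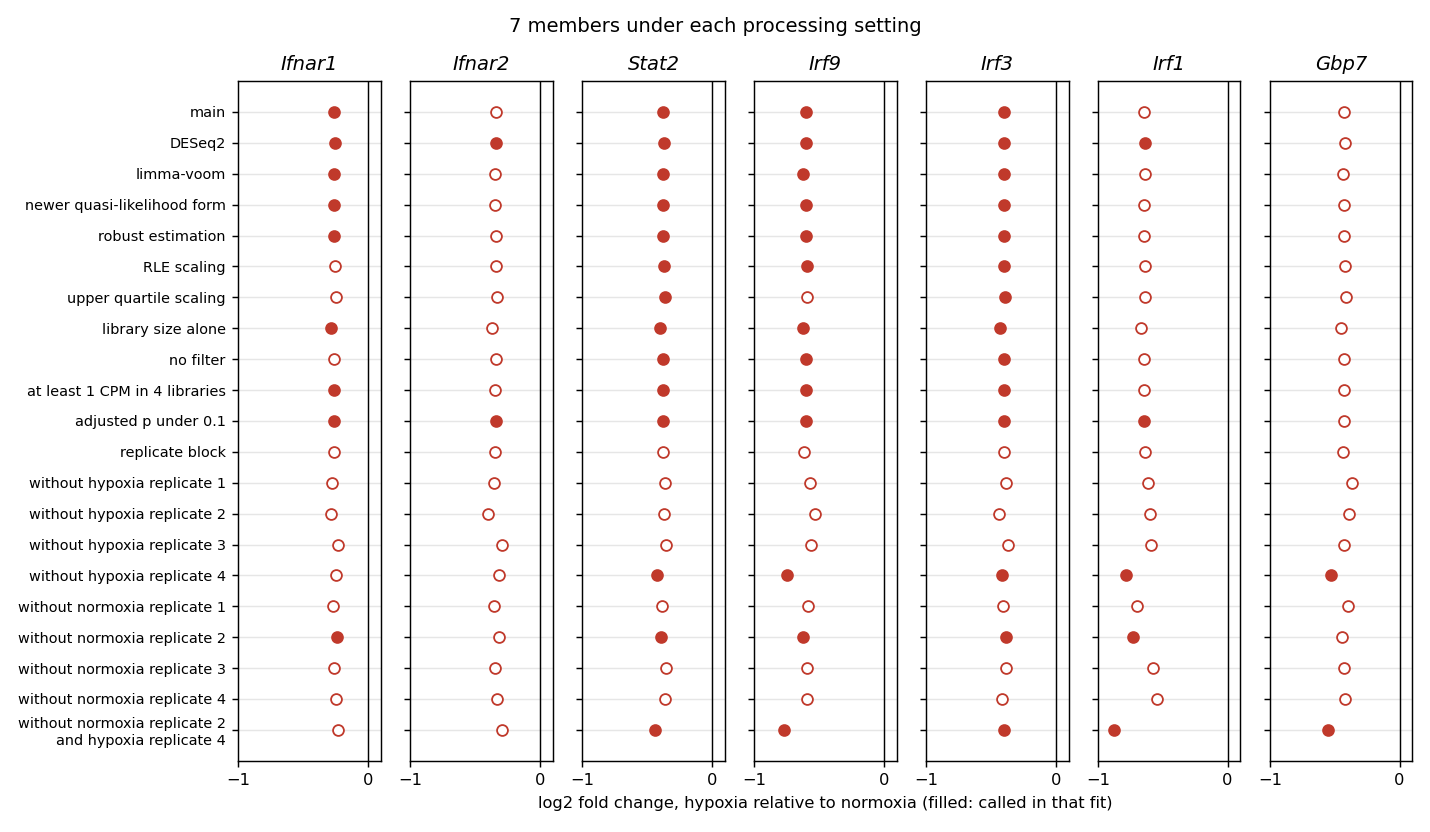
Log2 fold change (horizontal axes) of 7 members under each processing setting (rows), filled where the gene was called in that fit. Every point lies below 0, and the points of all 7 are open in the fit with a replicate block and without any 1 of the 6 libraries other than hypoxia replicate 4 and normoxia replicate 2.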

How the data were processed

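The authors deposited raw counts for each Ensembl gene and library. Tools listed in the submitters' processing notes are featureCounts, HISAT2 2.0.4, HISAT, Trimmomatic, SAMtools and DESeq2, with build mm10. Libraries were strand-specific, per the labels' protocols. Not given in the sources used here are the annotation release, the strand setting and the treatment of multi-mapping reads.

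The test was edgeR 4.0.16 (R 4.3.3) after filterByExpr with minimum count 10 and total 15, with TMM scaling, a quasi-likelihood F test and group as the only term. SE is the size of the log2 change divided by the root of F. Positions and exon lengths come from GENCODE M21 and promoters from RefSeq GRCm38.p6. The members and lists were chosen with earlier results of these data known. Every member is named. Library values are given for called members and, in each role group, those of smallest p and highest CPM, with Ifnar2, Irf1, Isg15 and Ifit2 added after their values were seen. From the further lists, called genes or that of smallest p are named, with Irf8, Mavs and Ifngr1. Irf5, Tmem173, Cxcl10 and Ccl5 were added after seeing values. Some genes of these lists are counted in them but not reported here by name. Ifi27l1 is an older name of Ifi27 and was not counted again. The gene test was tested on simulated data. No pair of libraries agreed within sampling noise (chi-square per gene at least 4.64). The design text calls the libraries biological replicates. Alternatives used DESeq2 1.42.0, limma 3.58.1, and other scalings, filters, thresholds and library subsets.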

Additional observations from a re-analysis of the deposited data

Results flagged for a closer look

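Of 66 groups of 4 values (33 members in 2 conditions), 5 held a value far from the other 3 by Dixon's ratio, at its 95% critical value, and chance flags about 1 in 20 groups. Irf1 in hypoxia replicate 4 was at 5.64 CPM, with the rest of its group at 3.91 to 4.11 CPM. Parp14 in normoxia replicate 4 was at 6.86 CPM, with the rest at 4.59 to 4.95 CPM. Normoxia replicate 2 was low in Eif2ak2, at 7.71 CPM against 9.13 to 9.40 CPM, and in Rtp4, at 1.49 CPM against 2.45 to 2.59 CPM. Adar in hypoxia replicate 2 was at 311 CPM, with the rest at 329 to 330 CPM.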

How the results depend on the processing

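Ifnar1, Stat2, Irf9 and Irf3 had a negative log2 change in all 20 alternatives. Over all genes, 156 were called higher and 210 lower. DESeq2 gave 384 and 624, an adjusted p under 0.1 gave 384 and 674, library size alone 146 and 342, a replicate block 20 and 1, and leaving out normoxia replicate 2 and hypoxia replicate 4 together 456 and 739. With 1 library left out, the counts ran from 24 to 329 higher and from 2 to 457 lower, members called lower from 0 to 5, further pathway genes called lower from 0 to 3 and called higher from 0 to 1. Members called lower numbered 4 in the reported fit, 2 with upper quartile scaling, 3 with RLE scaling or without a filter, and 0 with the replicate block. Ifnar2 and Irf1 were called lower beside the 4 with DESeq2 and at an adjusted p under 0.1, where 3.66% and 3.95% of all genes were lower. Further pathway genes called lower numbered 2 as reported, 4 with DESeq2, 1 with RLE or upper quartile scaling, 0 with no filter or the replicate block, and 5 at an adjusted p under 0.1 or without both libraries, where 1 (Tlr7) was higher. Same-numbered libraries shared only a number: their deviations had correlations of −0.11 to 0.04, and 0 libraries correlated best with their own number. With 1 library left out, the adjusted p ran from 0.0477 to 0.169 for Ifnar1, 0.0107 to 0.12 for Stat2, 0.00282 to 0.167 for Irf9 and 0.0222 to 0.117 for Irf3. Scaling ended the call of Ifnar1 (RLE, adjusted p = 0.0513, and upper quartile, 0.056) and Irf9 (upper quartile, 0.0519).

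Members not called and near 0 changed sign in some fits, and the cause was not tested. The log2 change of Mx2 was 0.0060 with DESeq2, 0.089 with limma-voom, 0.0058 with RLE scaling, 0.019 with upper quartile scaling and 0.061 with the replicate block. That of Ifit2 was 0.00048 with upper quartile scaling. With library size alone, Eif2ak2 had −0.0013, Rsad2 had −0.012 and Rtp4 had −0.0068. Without both libraries, Irf2 had 0.056, Isg15 had −0.056, Usp18 had −0.11, Eif2ak2 had −0.054, Rsad2 had −0.023, Mx2 had 0.40 and Rtp4 had −0.10. With 1 library left out, the log2 changes ran from −0.13 to 0.045 for Irf2, −0.19 to 0.012 for Irf7, −0.12 to 0.23 for Isg15, −0.037 to 0.35 for Usp18, −0.047 to 0.039 for Ifit2 and −0.0060 to 0.35 for Ifit3. They ran from −0.032 to 0.087 for Eif2ak2, −0.073 to 0.24 for Bst2, −0.038 to 0.11 for Rsad2, −0.18 to 0.34 for Mx2 and −0.13 to 0.098 for Rtp4.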

Other observations

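Ifnar1 and Ifnar2 stand in a run of cytokine receptor genes on chromosome 16 (GRCm38), all on the plus strand. The run was noticed after the values were seen. From Ifnar2 (starting at 91372783) to Ifngr2 (ending at 91565623) it holds Il10rb, which encodes a chain shared by the interleukin-10 and interferon-lambda receptors, and Ifngr2, a chain of the interferon-gamma receptor. Il10rb averaged 4.90 ± 0.625 CPM under hypoxia against 6.63 ± 0.974 CPM (SD over 4 libraries per group). Its log2 change of −0.43 was not called by edgeR (adjusted p = 0.143). Ifngr2 averaged 26.2 ± 1.70 CPM against 29.7 ± 1.98 CPM (log2 −0.18, edgeR adjusted p = 0.212). All 4 receptor genes thus had a negative log2 change, and Ifnar1 was the 1 that was called. The other tested gene in the stretch, the noncoding A930006K02Rik, had −0.05. Whether neighbouring genes there vary together was not tested.

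Tlr7, the endosomal sensor of single-stranded RNA, had a positive log2 change of 0.68. It was at 5.32, 5.28, 4.73 and 4.34 CPM in hypoxia and at 2.40, 4.57, 2.01 and 3.31 CPM in normoxia, with overlap through normoxia replicate 2 (edgeR adjusted p = 0.158). This gene was picked after its values were seen.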
